A study of Mus musculus with 9 samples.

Results

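The genes described here are the ligands and receptors of the tumour necrosis factor (TNF) superfamily, measured in a murine acute myeloid leukaemia cell line in which a core subunit of Polycomb repressive complex 2 (PRC2) had been suppressed. They were taken by name: every symbol starting with Tnfsf or Tnfrsf, together with Tnf, Lta, Ltb, Ltbr, Fas, Fasl, Cd27, Cd40, Cd40lg and Cd70. A mouse gene table held 43 such symbols. Of these, 39 were measured, 15 ligands and 24 receptors, out of 19937 genes tested. Tnfsf12, Tnfsf13 and their fusion gene Tnfsfm13 share a probe set that carries several symbols and were left out, and Tnfsf13os had no listed probe set. Every measured member had 1 probe set.

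All 9 arrays came from cells of genotype MLL-AF9/NrasG12D on a B6/SJL(CD45.2) background, transduced with the MSCV-based vector LMN and harvested at day 5. The 3 groups carried an shRNA against Renilla luciferase (Rluc, the control), against Eed or against Suz12, with 3 arrays each. The study asked which genes lie downstream of PRC2, the complex that methylates histone H3 at silenced genes. The labels do not tell whether replicate arrays stem from independent cultures, so p-values rest on a spread that may be technical only. Neither the hairpin sequences nor the clonality of the line are given.

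TNF ligands are mostly trimeric membrane proteins on immune cells that can be shed as soluble factors. Their receptors act through TRAF adaptors to NF-kB and MAP kinases, and those with a death domain, such as Fas, the TRAIL receptor Tnfrsf10b and Tnfrsf1a, can also assemble caspase-8 and start apoptosis. Decoy receptors bind a ligand without passing on a full signal. In myeloid cells, TNF itself is a major product of activated macrophages, and LIGHT, BAFF and RANKL connect myeloid cells with lymphocytes, stroma and bone.

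Both shRNAs lowered their targets. Eed was at 10.24, 10.14 and 10.27 (log2 values of replicates 1, 2 and 3) in the controls and at 8.34, 8.56 and 8.51 under Eed shRNA, a fall of 3.36-fold. Suz12 was at 12.10, 12.09 and 12.23 in the controls and at 10.14, 10.06 and 10.28 under Suz12 shRNA, 3.94-fold lower. The cells expressed the markers of a myeloid leukaemia line: all 11 of that list (among them Mpo, Kit, Spi1 and Itgam) lay above 6.32 on the log2 scale, the level below which 95% of 1027 olfactory receptor genes lay in the controls, used below as a guide to background. Of the lymphocyte markers, 3 of 7 for T cells (Cd5, Cd3e and Cd8a), 1 of 6 for B cells (Cd79b, at 7.83, 7.86 and 7.79 in control, Eed shRNA and Suz12 shRNA) and 0 of 5 for NK cells were above it in at least 1 group, and Cd3d, Cd3g, Cd79a, Ms4a1 and Ncr1 were below it in every group. Also above it were 4 of 6 dendritic cell, 4 of 7 fibroblast and stromal and 3 of 5 endothelial markers. A level just above the guide therefore need not mean expression. Of 9 neutrophil markers, Eed shRNA raised 7 and Suz12 shRNA raised 8. The mean log2 level of that list lay between 8.17 and 8.21 on the control arrays, 9.34 and 9.37 under Eed shRNA and 9.67 and 9.81 under Suz12 shRNA. Of 7 monocyte and macrophage markers, 2 were called higher (Itgax by 1.55 and 1.60, Adgre1 by 1.13 and 1.23) and 2 lower (Ccr2 by -0.81 and -1.10, Cx3cr1 by -0.65 and -0.62) in both comparisons. Of the 11 leukaemia line markers, 4 were called higher and 4 lower in both, among them Itgam (0.70 and 0.69), Flt3 (-1.24 and -1.41) and Cebpa (-0.73 and -0.82). The part of these shifts in the changes given below was not tested, and in bulk RNA a change in the share of cells of a type and a change in RNA per cell cannot be told apart.

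A few members passed the test and most did not. Under Eed shRNA 5 of the 39 members were called higher (8.78% of all genes were) and 3 lower (13.1% of all genes), where a call is a Benjamini-Hochberg adjusted p under 0.05 over all genes. Under Suz12 shRNA 4 were called higher (8.25% of all genes) and 3 lower (12.9% of all genes). The share of members called, 8 of 39 and 7 of 39, was thus near the background of 21.8% and 21.2%. Of the calls over all genes, the higher ones made up between 29.4% (median centring) and 50.6% (cyclic loess) under Eed shRNA, and between 32.5% and 52.5% under Suz12 shRNA. For the members the split moved under Eed shRNA to 4 higher and 5 lower after median centring and to 6 higher and 3 lower after cyclic loess.

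The size of the change set a few members apart. Tnfrsf23, Tnfrsf26 and Tnfsf14 were called higher and changed at least 1.5-fold under Eed shRNA, which 1.99% of all genes did, and Tnfrsf23 and Tnfrsf26 did so under Suz12 shRNA, which 2.03% of all genes did. No member was called lower by that much, against 0.396% of all genes in each comparison. The 24 receptors had median changes of 0.03 (Eed shRNA) and 0.01 (Suz12 shRNA) and the 15 ligands of -0.01 and -0.04, beside -0.01 and -0.02 for all genes. The comparisons share their 3 control arrays.

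**Figure D1:**
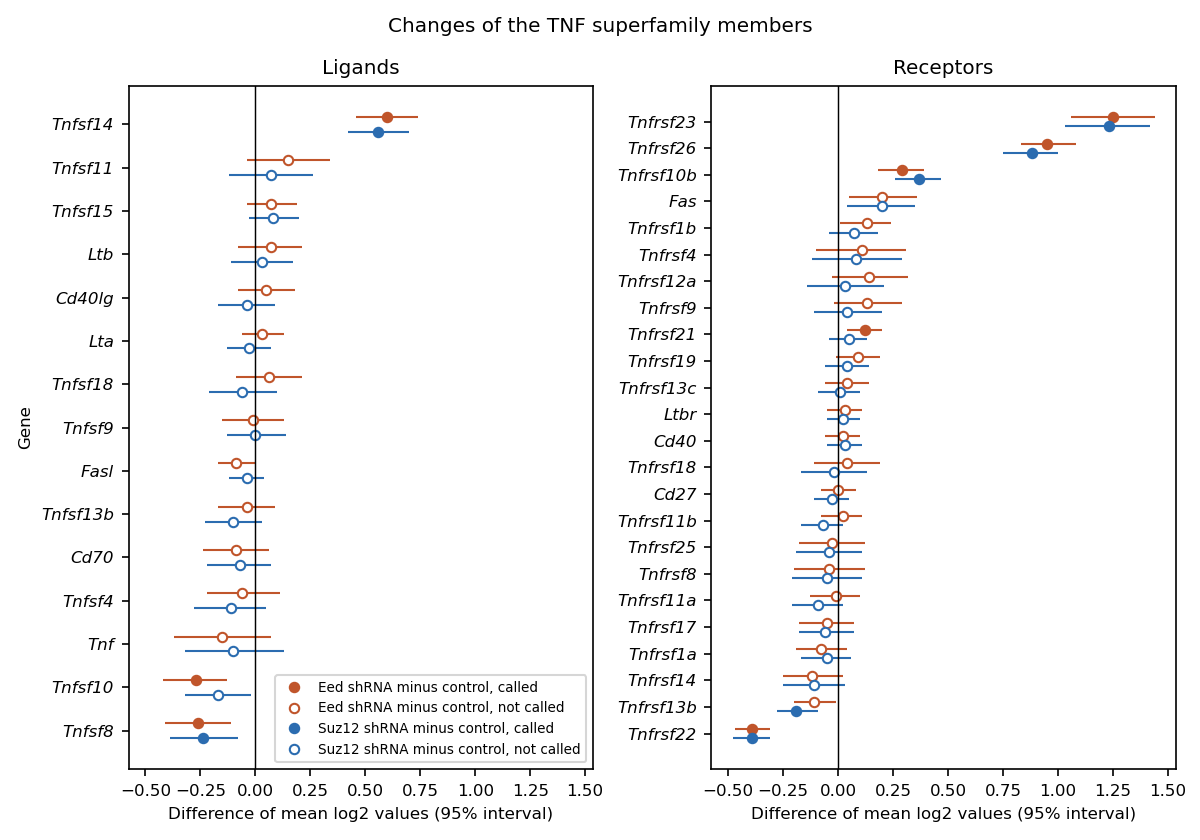
Difference of mean log2 values between each knockdown and the control (horizontal axis) for 15 ligands and 24 receptors, with 95% intervals of the moderated fit; filled points were called over all genes and open points were not. Tnfrsf23 (1.25 and 1.23) and Tnfrsf26 (0.95 and 0.88) lie to the right of all other members, Tnfsf14 leads the ligands, and most intervals cross 0.

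For the 2 members with the largest rises that have a promoter in the RefSeq table (assembly GRCm38.p6), the 250 bases before the annotated start are shown, 5′ to 3′ on the gene's own strand and with CG dinucleotides in capitals, because PRC2 is known to act mainly at promoters rich in CG. The Tnfrsf23 stretch is chr7:143685876-143686125 and the Tnfsf14 stretch is chr17:57194182-57194431, both on the minus strand.
Tnfrsf23: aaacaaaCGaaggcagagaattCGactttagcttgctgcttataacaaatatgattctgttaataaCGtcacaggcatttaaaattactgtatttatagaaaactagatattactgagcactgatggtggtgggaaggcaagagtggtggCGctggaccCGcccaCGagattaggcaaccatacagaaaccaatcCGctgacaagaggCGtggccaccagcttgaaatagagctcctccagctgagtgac
Tnfsf14: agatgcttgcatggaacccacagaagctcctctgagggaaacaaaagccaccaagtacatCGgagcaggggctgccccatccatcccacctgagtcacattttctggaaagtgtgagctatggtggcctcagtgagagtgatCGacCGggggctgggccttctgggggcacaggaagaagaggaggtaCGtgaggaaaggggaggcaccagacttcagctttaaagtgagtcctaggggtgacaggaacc
The CG content of both was near the median of all promoters, and whether PRC2 acts at them was not tested. With the 50 bases after the start included, the window of Tnfrsf23 held 9 CG dinucleotides and that of Tnfsf14 held 7, against a median of 7 over 32851 RefSeq windows of 300 bases, and 56.5% and 51.4% of all windows held at most as many. Over the 34 windows of the 30 members in the table the count ran from 2 (Tnfrsf14) to 43 (Tnfrsf11a), with a median of 8.5.

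Those windows were also searched on both strands for letters that match transcription factor sites. The AP-1 site TGAGTCA occurred in the Tnfsf14 window, where it starts 160 bases before the start, and in those of Fas, Tnfrsf8, Tnfrsf9 and Tnfsf13b. These are 6 of 34 member windows, or 17.6%, against 5.20% of all windows, and both Tnfsf13b windows overlap. The ETS core GGAAGT was in 20.6% of member windows and 23.8% of all windows, and the NF-kB site in 3 member windows (Ltb, Tnfrsf8 and Tnfrsf9), or 8.82%, against 4.51%. The Tnfrsf23 window held no match to these letters. Of the genes named here with an AP-1 match, Tnfsf14 alone was called in either comparison.

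The largest changes fell on neighbouring receptor genes of mouse chromosome 7. Tnfrsf26, Tnfrsf22 and Tnfrsf23 lie next to each other in that order, and the proteins of Tnfrsf22 and Tnfrsf23 are known as decoy receptors that bind TRAIL without a death domain. Tnfrsf23 was at 8.82, 8.56 and 8.79 in the controls, at 10.00, 10.07 and 9.86 under Eed shRNA and at 10.09, 9.85 and 9.90 under Suz12 shRNA. Every knockdown array lay above every control array, and both knockdown groups overlapped each other. Suppression of Eed raised Tnfrsf23 2.38-fold (a log2 change of 1.25, adjusted p = 5.85e-06), and suppression of Suz12 raised it 2.34-fold (1.23, adjusted p = 6.52e-06), with an SE of 0.09 in both.

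Tnfrsf26, a receptor of the same family whose ligand is less well known, was at 10.39, 10.57 and 10.58 in the controls, at 11.49, 11.51 and 11.39 under Eed shRNA and at 11.39, 11.43 and 11.36 under Suz12 shRNA. Again no knockdown array reached down to the controls. The rise was 1.94-fold (0.95, SE 0.06, adjusted p = 2.4e-06) and 1.84-fold (0.88, SE 0.06, adjusted p = 3.98e-06).

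Tnfrsf22, which lies between them, went the other way. Its values were 9.53, 9.47 and 9.53 in the controls, 9.15, 9.09 and 9.12 under Eed shRNA and 9.11, 9.09 and 9.14 under Suz12 shRNA, with all knockdown arrays below all control arrays. It fell by 0.39 on the log2 scale in each comparison, 1.31-fold (SE 0.04, adjusted p = 5.96e-05 for Eed shRNA and 5.36e-05 for Suz12 shRNA), the largest fall of any member. Tnfrsf22 and Tnfrsf23 are close paralogs, and how far their probe sets cross-hybridize was not tested.

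**Figure D2:**
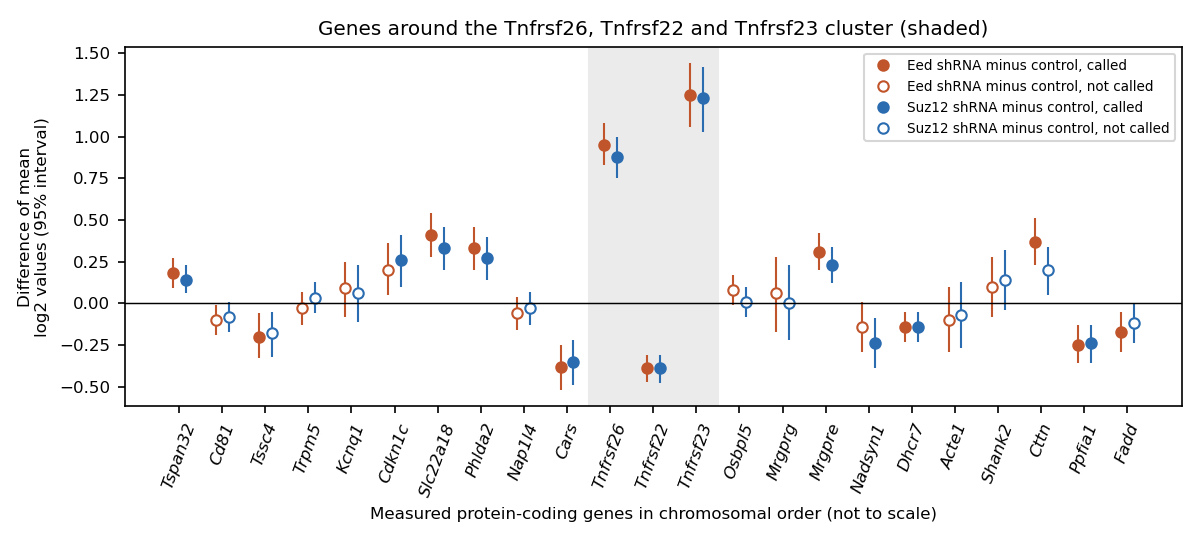
Difference of mean log2 values from the control (vertical axis, with 95% intervals) for the 3 receptor genes (shaded) and 20 measured protein-coding genes around them, in chromosomal order and not to scale; filled points were called. Tnfrsf26 and Tnfrsf23 stand above all neighbours, whose changes lie between -0.38 and 0.41, while Tnfrsf22 between them lies below 0.

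The genes around the cluster changed by less than Tnfrsf23 and Tnfrsf26. Of the 20 measured protein-coding genes among the 10 on either side, 5 were called higher and 5 lower under Eed shRNA and 5 higher and 4 lower under Suz12 shRNA, a window chosen after the values were seen. These 10 and 9 of 20 calls compare with 21.8% and 21.2% of all genes. Their changes ran from -0.38 to 0.41 and from -0.35 to 0.33. On the side of Tnfrsf26 the transporter gene Slc22a18 (0.41 and 0.33) and Phlda2 (0.33 and 0.27) rose and the aminoacyl-tRNA synthetase gene Cars (-0.38 and -0.35), the next gene to Tnfrsf26, fell. On the side of Tnfrsf23 the next gene, Osbpl5, changed by 0.08 and 0.01 and was not called. Farther out on that side Mrgpre (0.31 and 0.23) rose, and Dhcr7 (-0.14 and -0.14) and Ppfia1 (-0.25 and -0.24) fell, in both comparisons. On the side of Tnfrsf26, Tspan32 (0.18 and 0.14) was also called higher in both. Under Eed shRNA alone Cttn (0.37) was called higher, and Fadd (-0.17) and, on the side of Tnfrsf26, Tssc4 (-0.20) lower. Under Suz12 shRNA alone Nadsyn1 (-0.24) was called lower and, on the side of Tnfrsf26, Cdkn1c (0.26) higher.

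The functional TRAIL receptor rose by less. Tnfrsf10b encodes the death receptor of mouse TRAIL and is a known target of p53. Its values were 8.82, 8.74 and 8.86 in the controls, 9.06, 9.06 and 9.17 under Eed shRNA and 9.19, 9.15 and 9.18 under Suz12 shRNA. All 6 knockdown arrays lay above the controls, and the rise was 1.22-fold (0.29, SE 0.05, adjusted p = 0.00144) and 1.29-fold (0.37, SE 0.05, adjusted p = 0.000378).

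TRAIL itself, the ligand gene Tnfsf10, lay below the guide to background in every group, at 5.56, 5.50 and 5.73 in the controls, 5.45, 5.26 and 5.27 under Eed shRNA and 5.39, 5.45 and 5.45 under Suz12 shRNA. The knockdown arrays were below all control arrays, by a small margin. It was called lower under Eed shRNA (-0.27, SE 0.07, adjusted p = 0.0136), a call lost without Eed shRNA replicate 2 (-0.24) or 3 (-0.25), and was not called under Suz12 shRNA (-0.17, adjusted p = 0.106). The soluble decoy Tnfrsf11b, osteoprotegerin, was also below the guide and was not called (0.02 and -0.07).

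Tnfsf14 was the only ligand called higher. It encodes LIGHT, which binds the receptors of Tnfrsf14 and Ltbr. Tnfsf14 was at 8.33, 8.15 and 8.40 in the controls, at 8.83, 8.88 and 8.97 under Eed shRNA and at 8.86, 8.87 and 8.83 under Suz12 shRNA. The groups did not overlap with the controls. The rise was 1.51-fold (0.60, SE 0.06, adjusted p = 0.000103) and 1.48-fold (0.56, SE 0.06, adjusted p = 0.000154), so that Tnfsf14 lay just inside 1.5-fold in the first comparison and just outside in the second. Its receptor genes were not called: Tnfrsf14 changed by -0.12 and -0.11 (95% intervals -0.25 to 0.02 and -0.25 to 0.03) and Ltbr by 0.03 and 0.02 (-0.05 to 0.11 and -0.05 to 0.10). Its neighbours on chromosome 17, the ligand genes Tnfsf9 (-0.01 and 0.00) and Cd70 (-0.09 and -0.07), were not called either.

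**Figure D3:**
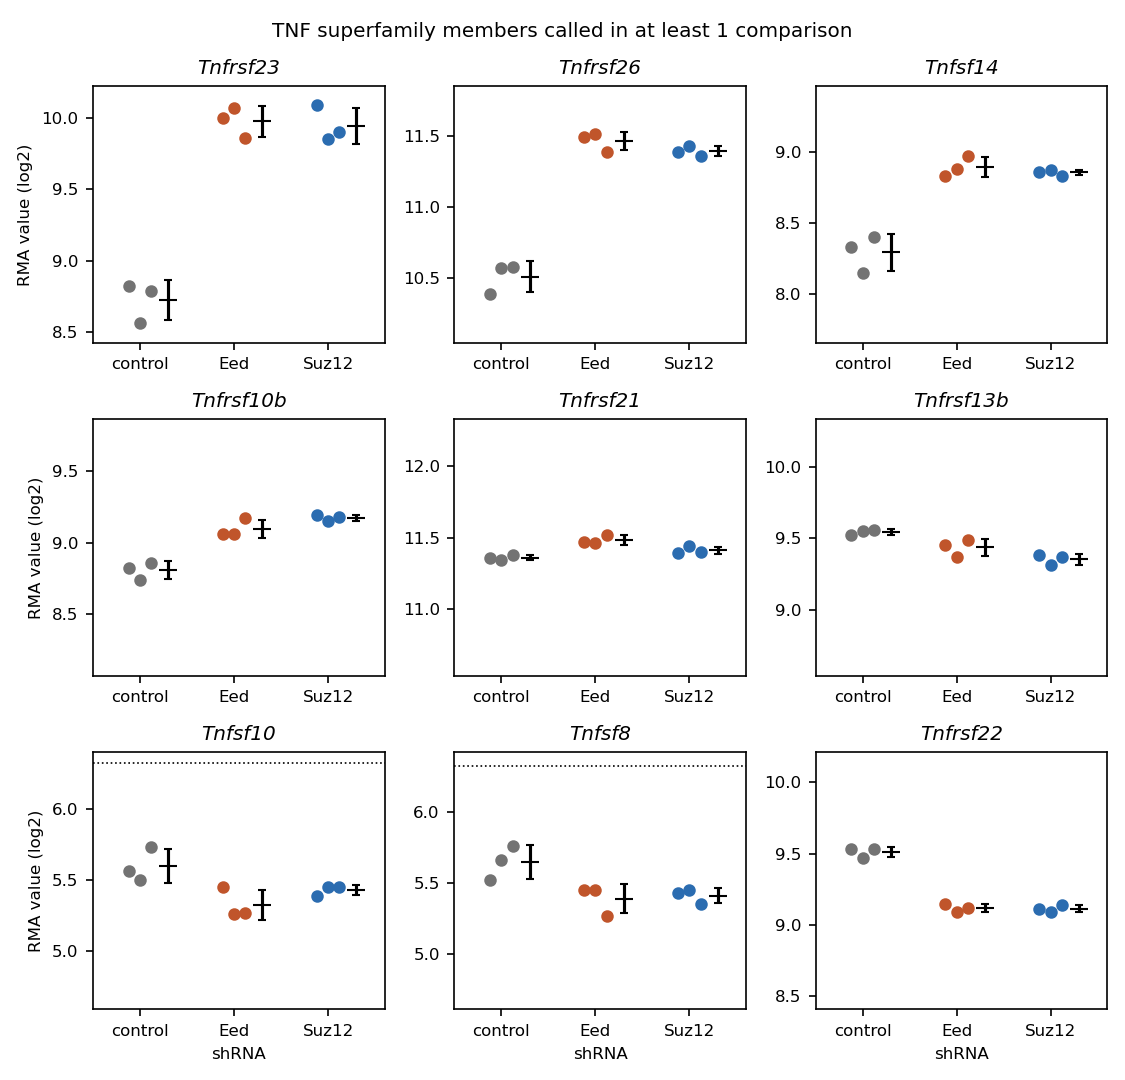
log2 RMA values of the 9 members called in at least 1 comparison (vertical axis, each panel spanning the same range of 1.8 log2 units), by shRNA; coloured points are arrays, black bars the mean and SD of 3 arrays, and the dotted line the guide to background at 6.32. Tnfrsf23, Tnfrsf26 and Tnfsf14 are clear of the controls, Tnfrsf22 falls with little spread, and Tnfsf8 and Tnfsf10 lie below the guide.

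The remaining calls were small. Tnfsf8, the ligand of the CD30 receptor, stayed below the guide to background in all groups (5.52, 5.66 and 5.76 in the controls, 5.45, 5.45 and 5.27 under Eed shRNA, 5.43, 5.45 and 5.35 under Suz12 shRNA). It was called lower in both comparisons (-0.26, adjusted p = 0.0209, and -0.24, adjusted p = 0.0323). Under Eed shRNA leaving out control replicate 2 (-0.25), control replicate 3 (-0.20) or Eed shRNA replicate 3 (-0.20) ended the call. Under Suz12 shRNA leaving out control replicate 2 (-0.23), control replicate 3 (-0.18) or any Suz12 array (-0.25, -0.26 and -0.21 without replicates 1, 2 and 3) ended it.

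Tnfrsf13b encodes TACI, a receptor for BAFF and APRIL best known on B cells. It was at 9.52, 9.55 and 9.56 in the controls, 9.45, 9.37 and 9.49 under Eed shRNA and 9.38, 9.31 and 9.37 under Suz12 shRNA, so the knockdown arrays lay below the controls. It was called lower under Suz12 shRNA (-0.19, SE 0.04, adjusted p = 0.00964) and not under Eed shRNA (-0.11, adjusted p = 0.114), although median centring called it there (-0.15). The difference between the knockdowns was not called (-0.08, adjusted p = 0.854). The other genes of this axis, the ligand BAFF (Tnfsf13b, -0.04 and -0.10) and the receptors Tnfrsf13c (0.04 and 0.01) and Tnfrsf17 (-0.05 and -0.06), were not called. Of these, Tnfrsf17 lay below the guide to background in every group.

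Tnfrsf21, the death domain receptor DR6, was called higher under Eed shRNA by 0.12 (SE 0.04, adjusted p = 0.0454) and changed by 0.05 under Suz12 shRNA (adjusted p = 0.471). Its values were 11.36, 11.34 and 11.38 in the controls, 11.47, 11.46 and 11.52 under Eed shRNA and 11.39, 11.44 and 11.40 under Suz12 shRNA. All knockdown arrays lay above the controls, by as little as 0.01 for Suz12 shRNA. The call was lost after median centring (0.08) and on leaving out any of 8 arrays, Suz12 shRNA replicate 2 being the exception, with changes then between 0.10 and 0.13.

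Expression of the TNF axis itself was not called as changed. Tnf, the founding cytokine of the family, was at 11.18, 11.65 and 11.25 in the controls, 11.25, 11.20 and 11.17 under Eed shRNA and 11.24, 11.28 and 11.27 under Suz12 shRNA. Control replicate 2 stood above all other arrays. The changes were -0.15 (95% interval -0.37 to 0.07) and -0.10 (-0.32 to 0.13), and without control replicate 2 they were -0.01 and 0.05. The receptor genes Tnfrsf1a (-0.08 and -0.05) and Tnfrsf1b (0.13 and 0.07) were not called, although quantile normalization (0.16) and cyclic loess (0.18) called Tnfrsf1b under Eed shRNA. Lta and Ltb, which flank Tnf and encode lymphotoxin subunits, changed by at most 0.07 in either direction, and Lta lay below the guide to background in every group.

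Fas, the death receptor of the Fas ligand and another known p53 target, lay below the guide to background, at 5.76, 5.99 and 5.71 in the controls, 5.96, 6.06 and 6.05 under Eed shRNA and 5.99, 5.99 and 6.07 under Suz12 shRNA. The groups overlapped through control replicate 2. It was not called (0.20 in each comparison, adjusted p = 0.0666 and 0.0707), but was called in both without control replicate 2 (0.29 in each). Fasl was below the guide (-0.09 and -0.04) and was called lower under Eed shRNA after median centring (-0.13).

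The costimulatory pairs of T cells were low or not called. Cd40lg, Cd70, Tnfsf4 and Tnfsf18 lay below the guide to background in every group, as did the receptor Cd27. Cd40 (0.02 and 0.03), Tnfrsf4 (0.11 and 0.08) and Tnfrsf18 (0.04 and -0.02), the receptors of Cd40lg, Tnfsf4 and Tnfsf18, were above it and were not called. Tnfrsf9 (0.13 and 0.04) was above it and not called, as was its ligand gene Tnfsf9. RANKL (Tnfsf11, 0.15 and 0.07) and its receptor RANK (Tnfrsf11a, -0.01 and -0.09), which control osteoclasts, were above the guide and not called. The same held for the ligand gene Tnfsf15 (0.07 and 0.08), its receptor gene Tnfrsf25 (-0.03 and -0.04), the CD30 gene Tnfrsf8 (-0.04 and -0.05), the TWEAK receptor Tnfrsf12a (0.14 and 0.03) and Tnfrsf19 (0.09 and 0.04).

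In all, 12 of 15 ligands and 18 of 24 receptors were called in neither comparison. Of these, 6 of the 12 ligands and 14 of the 18 receptors were above the guide to background in at least 1 group. The 95% intervals of all members not called, 31 under Eed shRNA and 32 under Suz12 shRNA, lay between -0.37 and 0.36, within 1.5-fold in either direction. For members below the guide these intervals describe values near background and do not bound a change in RNA. By level, 7 of 15 ligands and 20 of 24 receptors were above the guide to background in at least 1 group, as were 13533 of all 19937 genes. Probe sets differ in brightness, so levels are set against the guide and not against each other.

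No member was called between the knockdowns. Of 39, 0 were called between Suz12 shRNA and Eed shRNA (limma, background 0.176% of all genes), and 0 had an unadjusted p under 0.05. The differences ran from -0.12 to 0.10, with intervals between -0.28 and 0.28, and the smallest adjusted p was 0.835.

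Members that lie near each other on a chromosome, with neighbours at most 10 places apart in the order of protein-coding genes, formed 8 groups with measured members. That of Tnfrsf26, Tnfrsf22 and Tnfrsf23 was the only one in which all members were called, and they were called in opposite directions. In the group of Tnfsf9, Cd70 and Tnfsf14, only Tnfsf14 was called, and in that of Tnfsf15 and Tnfsf8, only Tnfsf8. No member was called in the groups of Tnfsf4, Tnfsf18 and Fasl, of Ltb, Tnf and Lta, of Tnfrsf1b and Tnfrsf8, of Tnfrsf4 and Tnfrsf18, and of Cd27, Ltbr and Tnfrsf1a.

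Among relatives whose symbols fall outside the rule, Eda2r rose. This receptor for ectodysplasin A2, also a known p53 target, was at 6.17, 5.99 and 6.19 in the controls, 6.51, 6.49 and 6.52 under Eed shRNA and 6.75, 6.75 and 6.57 under Suz12 shRNA, just across the guide to background. The knockdown arrays were all above the controls, and Eda2r rose by 0.39 (SE 0.06, adjusted p = 0.00145) and 0.57 (SE 0.06, adjusted p = 0.000154). The other 5 relatives (Eda, Edar, Edaradd, Ngfr and Relt) were not called, with changes of at most 0.09.

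Signalling genes downstream of the receptors showed small changes, and their counts are to be read against the 21.8% and 21.2% of all genes called. Of 14 receptor adaptors and ubiquitin ligases measured, 1 (7.14%) was called higher and 0 lower in each comparison, Traf3ip2 (0.13 in each), and none remained called without control replicate 2. Of 9 genes of death receptor and necroptosis signalling, 4 (44.4%) were called for Eed shRNA and 3 (33.3%) for Suz12 shRNA. The necroptosis kinase gene Ripk3 rose (0.25 and 0.21). Daxx (-0.24 and -0.20) and the BH3 protein gene Bid (-0.16 and -0.16) fell in both comparisons, and the adaptor gene Fadd fell under Eed shRNA (-0.17, against -0.12, not called). Without control replicate 2 no gene of this list was called lower in either comparison. That array was the highest control for only 1 of these 9 genes and 1 of the 14 adaptor genes. A fit with fewer arrays can also lose calls. Counts without any other array are not given for these lists, and why the calls were lost was not tested. Of 24 NF-kB kinases, subunits and inhibitors, Eed shRNA gave 3 higher and 1 lower call (16.7% called) and Suz12 shRNA gave 2 higher and 0 lower (8.33%), with the subunit gene Rel at 0.23 in each and Tnfaip8l2 at 0.24 and 0.19. Without control replicate 2, 7 were higher under Eed shRNA and 6 under Suz12 shRNA, and 0 were lower in either.

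The sheddases, proteases that release ligands and receptors from the membrane, included the largest change among these pathway genes. Adam8, a metalloprotease of myeloid cells, was at 11.12, 11.69 and 11.26 in the controls, 12.65, 12.74 and 12.57 under Eed shRNA and 12.55, 12.62 and 12.61 under Suz12 shRNA. The groups were far apart, and Adam8 rose 2.45-fold (1.29, SE 0.12, adjusted p = 3.94e-05) and 2.35-fold (1.23, SE 0.12, adjusted p = 5.16e-05). Rhbdf2, the inactive rhomboid that brings the TNF sheddase to the cell surface, rose by 0.51 and 0.47. The TNF sheddase gene Adam17 itself changed by 0.05 and 0.04 and Adam10 by 0.11 and 0.00, and neither was called. Of 6 genes in that list, 2 (33.3%) were called higher in each comparison, where 8.78% and 8.25% of all genes were.

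Genes that respond to NF-kB were called in both directions. Of 19 measured, Eed shRNA gave 8 higher and 2 lower calls and Suz12 shRNA gave 5 higher and 2 lower, with list medians of 0.13 and 0.08, where 21.8% and 21.2% of all genes were called. The chemokine gene Ccl4 was at 8.03, 8.98 and 7.87 in the controls, 9.53, 9.43 and 9.49 under Eed shRNA and 9.11, 9.05 and 9.14 under Suz12 shRNA. It rose 2.28-fold (1.19, adjusted p = 0.00318) and 1.75-fold (0.81, adjusted p = 0.0263), with control replicate 2 again the highest control. Without that array the changes were 1.53 and 1.15. Ccl2 (0.64 and 0.56) and the adhesion gene Icam1 (0.44 and 0.33) rose too. So did the interleukin gene Il1b (0.56 and 0.64), which lay below the guide to background in the controls, at 6.14, 5.95 and 6.06. The antioxidant enzyme gene Sod2 (-0.36 and -0.28) and the stress gene Gadd45b (-0.35 and -0.49) fell. Control replicate 2 was the highest control for 14 of the 19 genes, against 6248 of all 19937 genes. Without it the calls were 8 higher and 2 lower for Eed shRNA and 7 higher and 2 lower for Suz12 shRNA.

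**Figure D4:**
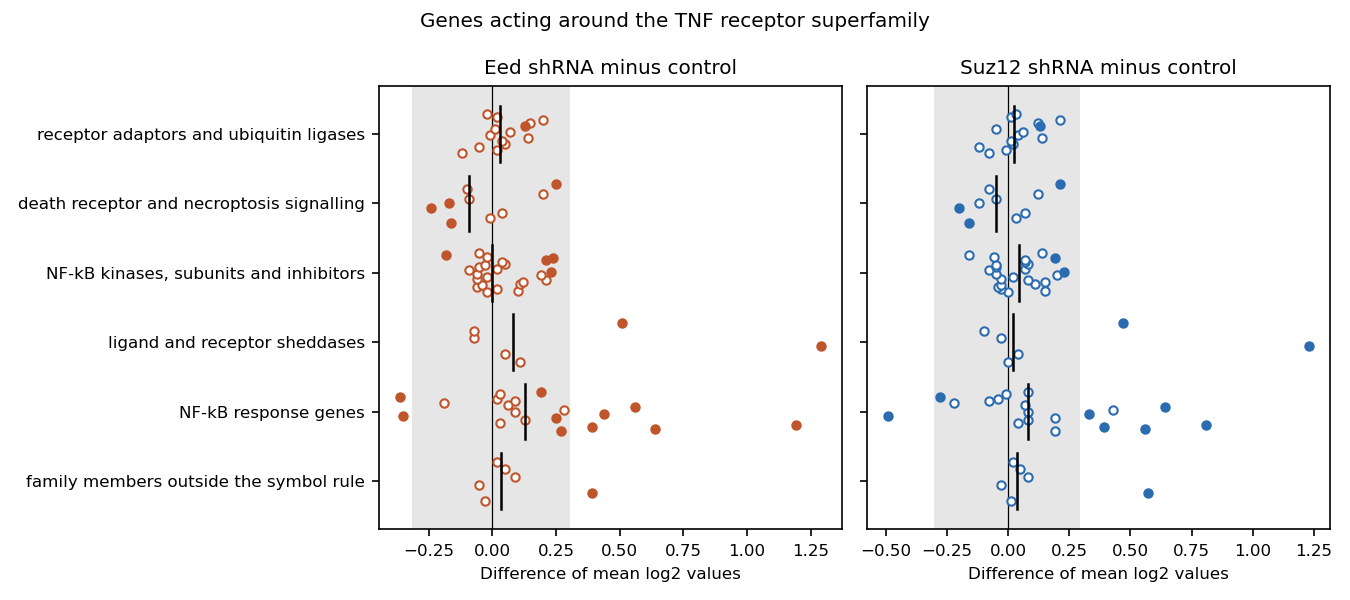
Difference of mean log2 values from the control (horizontal axis) for each measured gene of the 6 lists of adaptors, signalling genes, sheddases, response genes and relatives, under Eed shRNA (left) and Suz12 shRNA (right); filled points were called, black bars are list medians and grey bands run from the 5th to the 95th percentile of all genes. Most points lie within the bands (-0.31 to 0.30 and -0.30 to 0.29), and Adam8 and Ccl4 lie farthest to the right.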

How the data were processed

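Total RNA was hybridized to Affymetrix arrays. Per the submitters' processing notes the authors deposited RMA values, taken here as log2 values (checked: 3.38 to 14.46, array medians 6.86 to 6.95). The RMA version and genome build were not given in the sources used here. Of 34760 probe sets, 21640 carried 1 symbol in GEO's platform annotation; the brightest per gene gave 19937 genes. All 9 arrays entered 1 fit with a mean for each group (limma 3.58.1, R 4.3.3, lmFit and eBayes, 6 residual and 4.11 prior degrees of freedom; two-sided, Benjamini-Hochberg over all genes, called under 0.05), and the fit was tested on simulated data. RMA gives no detection call and nothing was filtered. The members, the lists and the rule for named genes (targets, all members, up to 6 genes per list by adjusted p) were chosen with earlier results of these data known. The gene table of GRCm38.p6 gave names and gene order only. Alternatives covered scaling, dim genes, variance model, samples fitted, probe set rule, replicate block and single arrays left out; the pathway counts without control replicate 2 were added after seeing the data.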

Additional observations from a re-analysis of the deposited data

How the results depend on the processing

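Under all 18 alternatives Tnfrsf23, Tnfrsf26, Tnfsf14, Tnfrsf10b and Tnfrsf22 kept their direction and their calls in both comparisons, and no called member changed sign. Several alternatives could not alter a direction. Every measured member had 1 probe set, so the probe set rules left its values as they were. Removing dim genes or changing the variance model also leaves the log2 changes as they were. Tnfrsf23 ranged from 1.17 to 1.31 under Eed shRNA and from 1.14 to 1.28 under Suz12 shRNA. The number of members called lower under Eed shRNA was 3, but 5 after median centring and 1 without the dim genes, which leaves Tnfsf8 and Tnfsf10 untested. On leaving out single arrays it ranged from 1 to 3, with 1 (Tnfrsf22) without Eed shRNA replicate 3. The calls of Tnfsf8, Tnfsf10 and Tnfrsf21 are the ones that were lost, and the cause was not tested. Tnfsf8 under Eed shRNA also lost its call when only the compared groups were fitted (-0.26), as did Tnfrsf21 (0.12).

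The values gave no sign that arrays of the same replicate number are pairs, though 3 arrays per group cannot exclude it. Same-numbered arrays of different groups had deviations from their group means that correlated between -0.167 and 0.201, with 2 of 9 pairs above 0.1. An array was closest to its own number in 6 of 18 comparisons. With the number as a block, calls under Eed shRNA numbered 4 higher and 3 lower, those under Suz12 shRNA 4 higher and 2 lower, and those between the knockdowns 0; Tnfrsf21 (0.12) and, under Suz12 shRNA, Tnfsf8 (-0.24) lost their calls. The number of arrays limits precision, and values near the background guide limit what can be said of the dim ligands.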
